A study of Saccharomyces cerevisiae with 13 samples.

Results

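The 10 genes described here encode enzymes and a carrier of arginine synthesis and breakdown in Saccharomyces cerevisiae. The 8 genes of the synthesis route are ARG2, ARG7, ARG8, ORT1, CPA1, ARG3, ARG1 and ARG4, and the 2 genes of the breakdown route are CAR1 and CAR2. Their systematic names are, in that order, YJL071W, YMR062C, YOL140W, YOR130C, YOR303W, YJL088W, YOL058W and YHR018C, and YPL111W and YLR438W. They were chosen by name through the table that pairs the array's probe sets with genes, and each of the 10 had 1 probe set among the 5449 genes measured. Of the other enzymes of the route, ARG5,6 and DUR1,2 were not analysed here. Each value is the signal of one probe set, that is, a set of short oligonucleotides matched to one transcript, on a log2 scale, where a difference of 1 is a doubling. Levels of different genes are not compared, because each probe set has its own response.

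RNA came from BY4741, a haploid laboratory strain of mating type a with altered HIS3, LEU2, MET17 (MET15) and URA3, and all arrays share this background. Cells in mid-log growth in YPD, a rich medium of yeast extract, peptone and glucose, were treated for 30 min. SMERs, small molecule enhancers of rapamycin, are known here by code names, and rapamycin inhibits TOR complex 1, the protein kinase that promotes growth while nutrients are plentiful. Every SMER was given at 20 µM and rapamycin at 100 nM. Of the 8 groups, SMER1 combined with rapamycin, rapamycin alone and SMER1 alone had 2 arrays each, SMER2 to SMER5 had 1 array per compound, and the solvent DMSO had 3. Replicate numbers are given without a statement that they were separate cultures, so p-values measure only the spread between these arrays, which may be technical. The RNA is that of a whole culture, so a change in some cells and a smaller change in every cell cannot be told apart.

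Arginine is built from glutamate. In the mitochondrion, acetylated intermediates are turned into ornithine, which a carrier exports to the cytosol, where carbamoyl phosphate and then aspartate nitrogen are added. Transcription of the route is known to be raised by Gcn4, the activator of amino acid synthesis, and several of its genes are held down in the presence of arginine by the ArgR-Mcm1 complex, which contains Arg80, Arg81 and Arg82. The same complex activates the breakdown genes, whose products turn arginine into ornithine and then into a precursor of proline. CAR1 is also under nitrogen catabolite repression, the system by which the GATA factors Gln3 and Gat1 turn on genes for poor nitrogen sources when TOR complex 1 is inhibited.

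The log2 signals of the 13 arrays had medians between 10.99 and 11.07. Arrays of one group correlated at r of 0.984 to 0.992 across genes, and arrays of different groups at 0.801 to 0.995 (genes are not independent replicates). The highest value between groups, 0.995, was thus above the highest within a group, 0.992. In a group of 2 arrays the 1 correlation cannot show whether either array stands apart. SMER2 to SMER5, with 1 array each, could not be checked in this way at all. As a check of the strain, the a-cell genes STE2, BAR1, MFA1 and MFA2 had log2 signals between 11.52 and 13.93 on all arrays, and among the altered genes URA3 lay between 1.97 and 4.55, MET17 between 4.05 and 5.78, LEU2 between 6.29 and 8.61 and HIS3 between 12.14 and 13.18. The HIS3 signal was therefore not low. The labels name no batch, and with 1 to 3 arrays a group the precision is limited by their number.

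**Figure D1:**
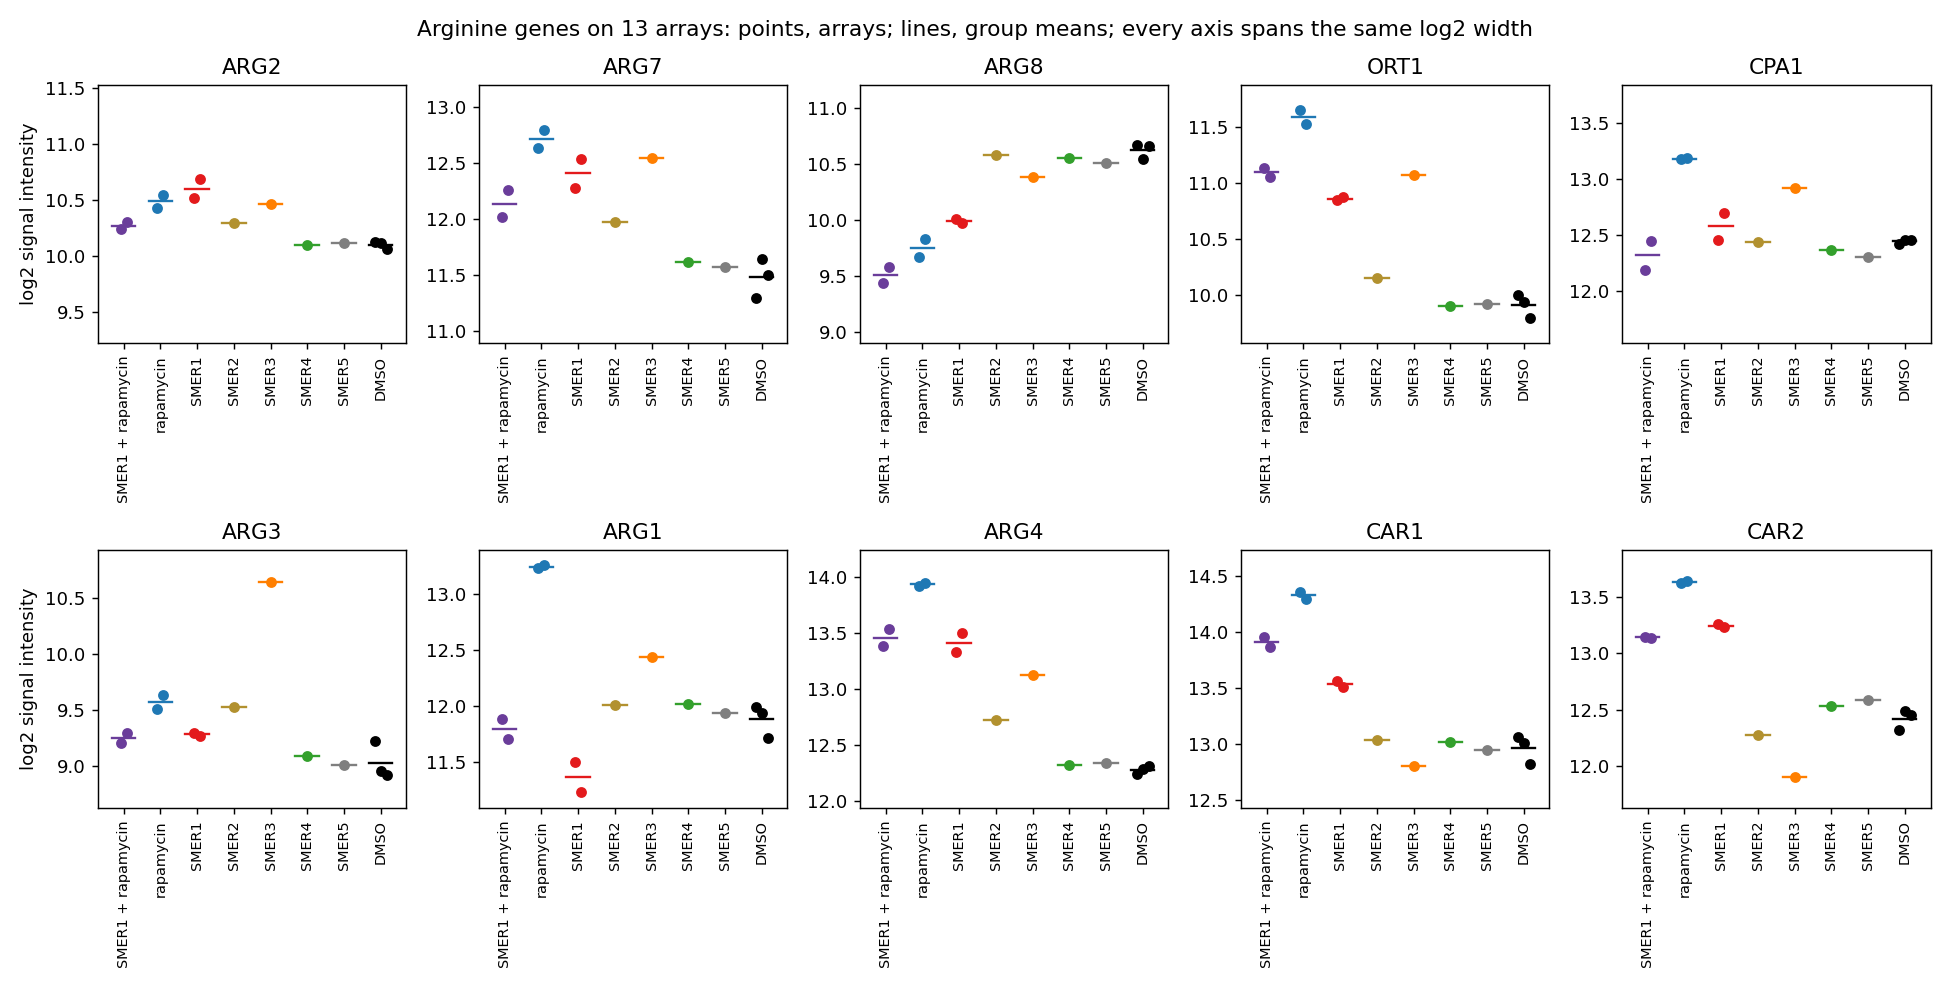
Log2 signal of each of the 10 genes (1 panel a gene) on each array, by treatment group, with the DMSO arrays at the right. Points are arrays and lines are group means. Rapamycin arrays are the highest for ARG7, ORT1, CPA1, ARG1, ARG4, CAR1 and CAR2, the single SMER3 array is the highest for ARG3, and ARG8 is lowest in the arrays with rapamycin.

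The first question was what rapamycin alone did to the genes. Of the 10 genes, 9 rose and 1 fell against DMSO, by a moderated linear model across all genes (limma, Benjamini-Hochberg adjusted p under 0.05, two-sided). Among all genes tested, 39.7% rose and 20.4% fell by the same rule. In none of the 10 did the rapamycin and DMSO arrays overlap. Such separation of arrays was not counted over all genes, here or below. It is therefore not read as particular to these genes. The median difference of the 10 genes was 1.23 on the log2 scale, against 0.16 over all genes tested.

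ORT1, the mitochondrial ornithine exporter (also called ARG11), had log2 signals of 11.65 and 11.52 in the rapamycin arrays, against 10, 9.94 and 9.80 in the DMSO arrays. The rapamycin arrays were all above, and the difference was 1.67 ± 0.08 (SE), which is 3.18-fold (adjusted p = 4.81e-06). ARG4, argininosuccinate lyase, the last enzyme of synthesis, had 13.92 and 13.94 in rapamycin arrays, against 12.24, 12.29 and 12.31 in DMSO arrays. Its difference of 1.65 ± 0.08 was 3.14-fold (adjusted p = 4.5e-06). ARG1, argininosuccinate synthetase, the step before it, had 13.23 and 13.25 in rapamycin arrays, against 11.99, 11.94 and 11.72 in DMSO arrays. The rise of ARG1 was 1.36 ± 0.12, or 2.56-fold (adjusted p = 5.15e-05). These 3 genes lay between the 95.1 and the 96.8 percentile of all genes by their difference.

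The other synthesis genes moved less or the other way. ARG7 (ECM40), the ornithine acetyltransferase that releases ornithine and recycles the acetyl group, had 12.63 and 12.79 in rapamycin arrays, against 11.30, 11.64 and 11.50 in DMSO arrays, a rise of 1.23 ± 0.13. CPA1, the small subunit of the arginine-specific carbamoyl phosphate synthetase, had 13.18 and 13.19 in rapamycin arrays, against 12.42, 12.45 and 12.46 in DMSO arrays, a rise of 0.74 ± 0.10. ARG3, ornithine carbamoyltransferase, rose by 0.54 ± 0.10, and ARG2, acetylglutamate synthase, which makes the first acetylated intermediate, rose by 0.39 ± 0.08. ARG8, the acetylornithine aminotransferase, was the one gene that fell. It had 9.67 and 9.83 in rapamycin arrays, against 10.67, 10.54 and 10.66 in DMSO arrays. ARG8 fell by 0.88 on the log2 scale (SE 0.08, adjusted p = 7.77e-05), which places it at the 7.6 percentile of all genes.

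Both breakdown genes rose with rapamycin. CAR1, arginase, which splits arginine into ornithine and urea, had 14.36 and 14.29 in rapamycin arrays, against 13.07, 13.01 and 12.82 in DMSO arrays. The rise of CAR1 was 1.36 ± 0.09, or 2.57-fold (adjusted p = 1.38e-05). CAR2, the ornithine aminotransferase that follows, had 13.63 and 13.65 in rapamycin arrays, against 12.32, 12.49 and 12.45 in DMSO arrays, a rise of 1.22 ± 0.07. CAR1 in the rapamycin arrays lay only 0.11 and 0.17 below the highest signal of any gene on the same array, against 1.41 to 1.54 below it in DMSO arrays. Whether the top of the scale held CAR1 down there was not tested.

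**Figure D2:**
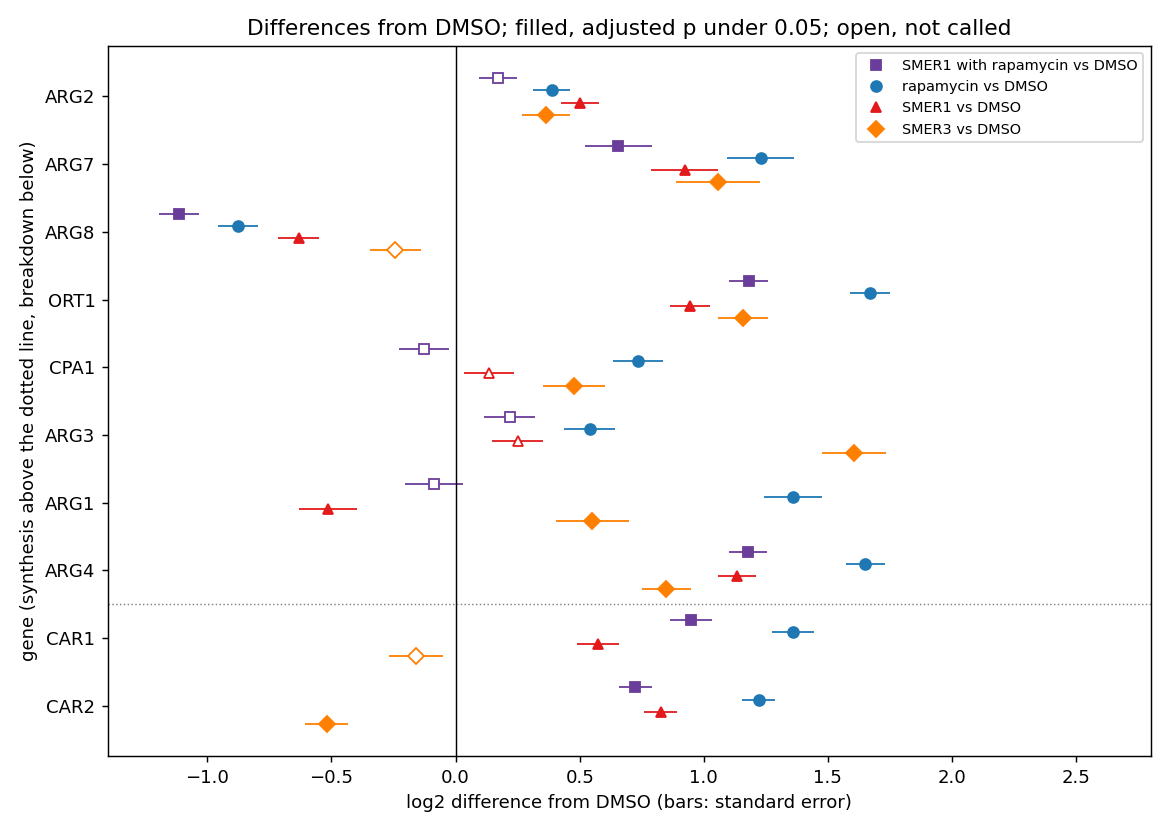
Log2 difference from DMSO (x axis) of each gene (y axis, synthesis above the dotted line and breakdown below it) in SMER1 with rapamycin, rapamycin, SMER1 and SMER3. Bars are standard errors, and filled symbols have an adjusted p under 0.05. The rapamycin circles lie to the right of 0 for 9 genes and at -0.88 for ARG8, while SMER3 lies at 1.61 for ARG3 and at -0.52 for CAR2.

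SMER1 alone raised 6 of the 10 genes and lowered 2 against DMSO, where 36.5% of all genes rose and 25% fell. ARG4 had log2 signals of 13.33 and 13.50 in SMER1 arrays, against the 3 DMSO arrays at 12.24 to 12.31, a rise of 1.13 ± 0.08, or 2.19-fold (adjusted p = 1.74e-05). ORT1 had 10.85 and 10.88 in SMER1 arrays, against 9.80 to 10 in DMSO arrays, and rose by 0.95 ± 0.08. ARG7 had 12.28 and 12.53 in SMER1 arrays, against at most 11.64 in DMSO arrays, and rose by 0.92 ± 0.13. In these 3 genes every SMER1 array was above every DMSO array. ARG2 also rose, by 0.50 ± 0.08, and the 2 breakdown genes rose by 0.57 ± 0.09 (CAR1) and 0.83 ± 0.07 (CAR2).

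ARG1 and ARG8 were the genes that fell with SMER1. ARG1 had 11.50 and 11.23 in SMER1 arrays, against 11.99, 11.94 and 11.72 in DMSO arrays. The arrays did not overlap, and ARG1 fell by 0.52 on the log2 scale (SE 0.12, adjusted p = 0.00601). Without SMER1 replicate 2 its difference was -0.38 (adjusted p = 0.0507). ARG8 had 10.01 and 9.98 in SMER1 arrays, below all 3 DMSO arrays, and fell by 0.63 (SE 0.08). CPA1 (difference 0.14 ± 0.10) and ARG3 (0.25 ± 0.10) did not pass the test, and the SMER1 arrays of CPA1 overlapped with those of DMSO.

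Set directly against rapamycin, SMER1 gave lower signals for 6 of the 10 genes and a higher one for none. Over all genes, 19.7% were lower and 932 of the 5449 were higher. ARG1 differed most, with 11.50 and 11.23 in SMER1 arrays, against 13.23 and 13.25 in rapamycin arrays. That difference of -1.87 ± 0.13 is 3.66-fold and lies at the 0.7 percentile of all genes (adjusted p = 7.37e-05). The differences of CAR1 (-0.79 ± 0.09), ORT1 (-0.73 ± 0.09), CPA1 (-0.60 ± 0.11), ARG4 (-0.52 ± 0.09) and CAR2 (-0.39 ± 0.07) also passed the test. ARG2, ARG7, ARG8 and ARG3 lay between -0.31 and 0.24 and did not pass.

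Adding SMER1 to rapamycin was compared with rapamycin alone. Of the 10 genes, 8 fell and none rose, where 28.2% of all genes fell and 988 of the 5449 rose. ARG1 had 11.88 and 11.70 in SMER1 with rapamycin, against 13.23 and 13.25 in rapamycin alone. With both compounds, 1 array lay within the range of the DMSO arrays, 11.72 to 11.99, and the other just below it. ARG1 fell by 1.45 on the log2 scale (SE 0.13, adjusted p = 0.000197), 2.72-fold, at the 1.2 percentile of all genes. CPA1 had 12.19 and 12.45 with both compounds, against 13.18 and 13.19 in rapamycin alone, and fell by 0.86 (SE 0.11, adjusted p = 0.000855). In both genes every array with both compounds was below every rapamycin array.

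The other falls against rapamycin alone were smaller. ARG4 had 13.38 and 13.54 with both compounds, against 13.92 and 13.94 in rapamycin alone, and fell by 0.47 (SE 0.09). ORT1 fell by 0.49 (SE 0.09), and CAR2 fell by 0.50 (SE 0.07), with 13.15 and 13.14 with both compounds, against 13.63 and 13.65 in rapamycin alone. CAR1 had 13.96 and 13.87 with both compounds, against 14.36 and 14.29 in rapamycin alone, and fell by 0.41 (SE 0.09). In none of these 4 did the arrays overlap. The calls of ARG7 (difference -0.57 ± 0.15, adjusted p = 0.0161), CAR1 and ARG3 (-0.32 ± 0.11, adjusted p = 0.049) did not hold in every setting. The call of ARG7 was lost without SMER1 with rapamycin replicate 1 (adjusted p = 0.0965) or rapamycin replicate 2 (adjusted p = 0.0896), and that of CAR1 without SMER1 with rapamycin replicate 2 (adjusted p = 0.0641). The call of ARG3 was lost in 10 of its 14 alternatives, among them quantile normalisation (adjusted p = 0.226) and leaving out either array of SMER1, of SMER1 with rapamycin or of rapamycin, or DMSO replicate 2. ARG2 (-0.22 ± 0.08) and ARG8 (-0.24 ± 0.09) were lower in all arrays with both compounds and did not pass the test.

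Against DMSO, SMER1 with rapamycin raised 5 genes and lowered 1, where 39.6% of all genes rose and 31.2% fell. ORT1 had 11.13 and 11.06 with both compounds, against 9.80 to 10 in DMSO arrays, and rose by 1.18 ± 0.08. ARG4 rose by 1.18 ± 0.08, CAR1 by 0.95 ± 0.09, CAR2 by 0.72 ± 0.07 and ARG7 by 0.66 ± 0.13. ARG8 had its lowest signals with both compounds, 9.44 and 9.59, against 10.54 to 10.67 in DMSO arrays, and fell by 1.11 (SE 0.08, adjusted p = 1.12e-05). ARG1 (-0.09 ± 0.12) and CPA1 (-0.13 ± 0.10), which rapamycin alone raised, did not differ from DMSO by the test, with 95% intervals of -0.36 to 0.19 and -0.36 to 0.11. ARG2 (0.17 ± 0.08) and ARG3 (0.22 ± 0.10) did not pass either. These results depended in part on the setting. After quantile normalisation CPA1 was called lower than DMSO by limma, at -0.32 (adjusted p = 0.0214). ARG2 was called higher in 2 alternatives (0.19 and 0.26), and ARG3 in 1 (0.31).

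The interaction asks whether the effect of SMER1 in the presence of rapamycin differs from its effect in DMSO, gene by gene. It was below 0 and passed the test for 9 of the 10 genes, where 21.3% of all genes passed in that direction and the median of all genes was -0.18. For ARG4, SMER1 added 1.13 ± 0.08 to the DMSO level and took 0.47 (SE 0.09) from the rapamycin level, a difference between effects of -1.61 ± 0.12 (adjusted p = 0.000242, the 1.9 percentile of all genes). The separate differences from DMSO of rapamycin and SMER1 sum to 2.79 for ARG4, while the difference measured with both compounds was 1.18. For ORT1 the sum was 2.62 and the measured difference again 1.18, and for CAR2 the sum was 2.05 and the measured difference 0.72. For these 3 genes the 2 compounds together gave less than rapamycin alone. Added to the DMSO mean of ARG4, 12.28, the sum of 2.79 would pass 14.67, the highest signal on any array. The same holds for CAR1, with a DMSO mean of 12.96 and a sum of 1.93. Such sums could not be reached on this scale. The ARG4 rapamycin arrays already lay only 0.546 and 0.515 below the highest signal on the same array. Whether the top of the scale affected the interactions was not tested.

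The interaction of ARG1 was -0.93 ± 0.17. SMER1 lowered ARG1 both in DMSO (-0.52 ± 0.12) and in rapamycin (-1.45 ± 0.13), and more in rapamycin (adjusted p of the interaction 0.00815). ARG8 was the exception in direction. SMER1 lowered it by 0.63 in DMSO and had a difference of -0.24 ± 0.09 in rapamycin, and the interaction was 0.39 ± 0.12 with an adjusted p of 0.0504. It passed as above 0 in 4 alternatives, with values of 0.39 to 0.62, the highest after quantile normalisation (adjusted p = 0.00719). The interaction of ARG3 (-0.57 ± 0.15, adjusted p = 0.031) became -0.17 after quantile normalisation (adjusted p = 0.402). Quantile normalisation moved the median interaction of all genes by 0.17. It changed the split of calls over all genes to 562 above and 732 below 0, beside 241 above and 1160 below 0 as deposited, and 8 of the 10 arginine genes stayed called below 0.

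**Figure D3:**
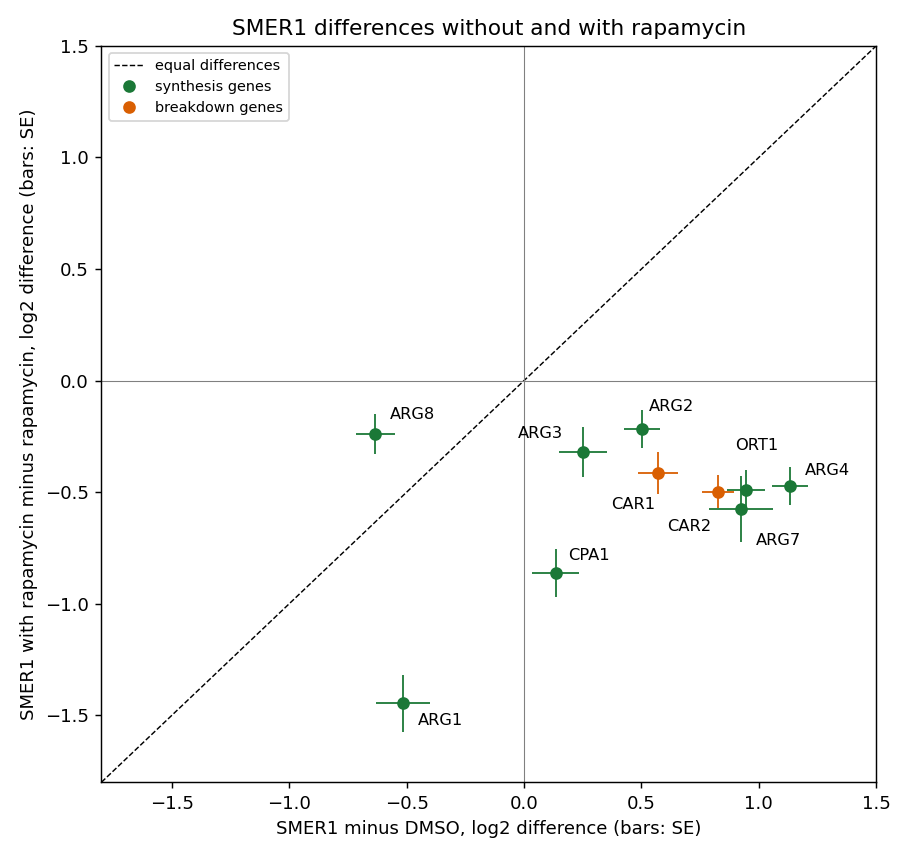
Effect of SMER1 on each gene in DMSO (x axis, SMER1 minus DMSO) and in rapamycin (y axis, SMER1 with rapamycin minus rapamycin), as log2 differences with standard errors. The dashed line marks equal effects. ARG8 alone lies above the line, and ARG1 lies at -0.52 on the x axis and -1.45 on the y axis.

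Adding rapamycin to SMER1 was the smaller step. SMER1 with rapamycin differed from SMER1 alone by a call in 3 genes, 1 higher and 2 lower, where 4.96% of all genes rose and 11.7% fell. CAR1 rose by 0.38 ± 0.09 (adjusted p = 0.0323), with 13.96 and 13.87 in SMER1 with rapamycin, against 13.56 and 13.51 in SMER1 alone. ARG8 (-0.48 ± 0.09) and ARG2 (-0.33 ± 0.08) fell. ARG1 had 11.88 and 11.70 in SMER1 with rapamycin, against 11.50 and 11.23 in SMER1 alone, a difference of 0.43 ± 0.13 that did not pass (adjusted p = 0.062). It passed in 5 alternatives, with differences of 0.43 to 0.46 and a smallest adjusted p of 0.0141. None of the 3 calls was left without SMER1 replicate 2 or without SMER1 with rapamycin replicate 1. ARG4 differed by 0.05 ± 0.09, with a 95% interval of -0.16 to 0.25.

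SMER3, on 1 array and so with no replicate check, gave another pattern. Its array carries replicate number 1, while the DMSO mean covers replicates 1 to 3. An effect of that number cannot be told apart from SMER3 in this fit. Against DMSO, 7 genes rose, all of the synthesis route, and CAR2 fell, where 21.6% of all genes rose and 14.8% fell. ARG3 had 10.64 in the SMER3 array, against 9.22, 8.96 and 8.92 in DMSO arrays, and the other 12 arrays ended at 9.64. The difference from DMSO was 1.61 ± 0.13, or 3.04-fold (adjusted p = 9.23e-05), at the 95.1 percentile of all genes. ORT1 had 11.07 in the SMER3 array, against 9.80 to 10 in DMSO arrays, and rose by 1.16 ± 0.10. ARG7 rose by 1.06 ± 0.17, ARG4 by 0.85 ± 0.10, ARG1 by 0.55 ± 0.15, CPA1 by 0.48 ± 0.13 and ARG2 by 0.37 ± 0.10.

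CAR2 had 11.90 in the SMER3 array, its lowest signal of all 13 arrays, against 12.32, 12.49 and 12.45 in DMSO arrays. It fell by 0.52 on the log2 scale (SE 0.09, adjusted p = 0.00271). CAR1 (-0.16 ± 0.11) and ARG8 (-0.24 ± 0.10) were below all DMSO arrays and did not pass the test. CAR1 passed as lower with the replicate block, a term for replicate number (-0.26). ARG8 passed as lower after median centring (-0.30), which moved the median of all genes by -0.06. After quantile normalisation, which moved the median of all genes by -0.11, both passed as lower, at -0.27 for CAR1 and -0.31 for ARG8. The split of calls over all genes then became 1016 higher and 1283 lower, beside 1177 higher and 806 lower as deposited.

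SMER3 was also set against SMER1 at the same dose and time. Of the 10 genes, 3 were higher with SMER3 and 2 lower, where 20.6% of all genes were higher and 26.1% lower. ARG3 had 10.64 in the SMER3 array, against 9.30 and 9.27 in SMER1 arrays, a difference of 1.36 ± 0.14 (adjusted p = 0.000315). ARG1 had 12.43 with SMER3, against 11.50 and 11.23 with SMER1, a difference of 1.07 ± 0.16. CAR2 had 11.90 with SMER3, against 13.26 and 13.23 with SMER1, a difference of -1.35 ± 0.09 (adjusted p = 7.35e-05), and CAR1 differed by -0.73 ± 0.11. The 2 breakdown genes were thus lower and ARG3 and ARG1 higher with SMER3. ARG8 was higher by 0.39 ± 0.11, a call lost without SMER1 replicate 1 (adjusted p = 0.0566) or replicate 2 (adjusted p = 0.0757). ORT1, ARG7, ARG2, CPA1 and ARG4 did not pass, with differences between -0.29 and 0.34. Some alternatives called CPA1 higher (0.34 to 0.49) and ARG4 lower (-0.37 to -0.24), and 1 called ARG7 higher (0.26).

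SMER2, SMER4 and SMER5, on 1 array each, gave no call among the 10 genes by limma. Over all genes the share called was 0.312% for SMER2, 0% for SMER4 and 0% for SMER5. At an unadjusted p under 0.05, 476, 78 and 211 of all genes passed for the 3 compounds in that order. With SMER2, the differences of the 10 genes lay between -0.14 (CAR2) and 0.50 (ARG3), and 4 of them, ARG3, ARG7, ARG4 and ORT1, were higher at an unadjusted p under 0.05, with a smallest adjusted p of 0.168. ARG4 had 12.73 in the SMER2 array, above the DMSO arrays at 12.24 to 12.31. The absence of calls for SMER2 depended on the fit. With a term for replicate number (the replicate block), ARG7 (0.63) and ARG4 (0.51) were called higher. Over all genes 513 were then called with SMER2, beside 17 in the reported fit. With SMER4 the differences lay between -0.08 and 0.14, and with SMER5 between -0.14 and 0.16, and no gene passed at an unadjusted p under 0.05. Over the 10 genes, the 95% intervals reached from -0.38 to 0.53 for SMER4 and from -0.44 to 0.49 for SMER5.

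Across all 8 groups, the moderated F test called 10 of the 10 genes, where 75% of all genes were called. Among the 5 SMERs it called 10 of 10, where 58.1% of all genes were called. When the 8 group means of a gene were put in order, neighbours in that order differed beyond a 95% interval in 19 of 70 steps. The order was set by these same means and the intervals are unadjusted, so the count is a description. It was not made over all genes. ARG4 had 4 such steps, and ARG2 and ARG7 had none. The highest group mean was that of rapamycin for ARG7, CPA1, ARG1, ARG4, ORT1, CAR1 and CAR2, of SMER1 for ARG2 (10.60), of SMER3 for ARG3 and of DMSO for ARG8 (10.63). For ARG2, the means of SMER1 and rapamycin, 10.60 and 10.49, did not differ beyond that interval.

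As a description over the 8 group means, which share the same arrays, CAR1 and CAR2 correlated at r = 0.928 and ARG4 and ORT1 at r = 0.972. The 28 pairs of synthesis genes spanned r of -0.873 to 0.972, with a median of 0.55. Among the other genes with some spread between groups (an SD of group means of at least 0.3), the most alike in pattern to ARG8 were RPC31, a subunit of RNA polymerase III, and NOP8, a ribosome assembly factor, both at r = 0.999. ARG8 had 373 of 2803 such genes at r of 0.95 or more, while ARG2 had 0, ARG7 had 1 and ARG1 had 2. The most alike to CAR1 were ALT1, an alanine transaminase, at 0.991 and GUD1, a guanine deaminase, at 0.99. ARG4 was nearest to PRM5 (0.989) and STR2 (0.988), ORT1 to SKM1 (0.989) and STR2 (0.988), and CAR2 to ROT1 (0.973) and PIN2 (0.972). ARG7 and ARG2 were both nearest to BIO3, a gene of biotin synthesis, at 0.955 and 0.875, CPA1 to UGA3 (0.971), ARG3 to IST3 (0.968) and ARG1 to YAL037W (0.957).

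Regulators and neighbouring enzymes of the route were counted in a list of 21 genes, of which 18 were measured. With rapamycin against DMSO, 13 of the 18 rose and 3 fell, beside 39.7% and 20.4% of all genes, and their median difference was 0.51. Of the subunits of the ArgR-Mcm1 complex, ARG80 (-0.06 ± 0.18) and ARG81 (-0.05 ± 0.17) did not pass, ARG82, which is also an inositol polyphosphate kinase, fell by 0.46 (SE 0.09), and MCM1 fell by 0.73 (SE 0.17). GCN4 mRNA rose by 0.46 ± 0.09. Gcn4 is controlled mainly at translation, which these arrays do not measure. The GATA factors GLN3 and GAT1 rose by 0.65 ± 0.14 and 1.31 ± 0.12. Downstream of CAR2, PUT1, proline oxidase, rose by 4.19 ± 0.21 and PUT2, the next enzyme, by 1.03 ± 0.08.

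For the other treatments the same list is given by its counts. With SMER1 with rapamycin against DMSO, 10 of the 18 rose and 2 fell, beside 39.6% and 31.2% of all genes. With SMER1, 10 rose and 1 fell, beside 36.5% and 25% of all genes, and PUT1 rose by 1.00 ± 0.21. With SMER3, 4 rose and 1 fell, beside 21.6% and 14.8% of all genes, and the highest was ARG82 at 1.5 ± 0.12 (adjusted p = 7.49e-05). With SMER2, SMER4 and SMER5 none of the 18 was called by limma, and 0, 2 and 1 passed at an unadjusted p under 0.05.

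A pair of broader lists was read beside the arginine genes. The first held 33 other amino acid synthesis genes known as Gcn4 targets. With rapamycin 18 of them rose and 4 fell, beside 39.7% and 20.4% of all genes, with a median difference of 0.30, and they ranged from LEU9 at -2.23 to LYS1 at 1.54. With SMER1 added to rapamycin, against rapamycin alone, 1 rose and 23 fell, with a median of -0.37. In that comparison 28.2% of all genes fell and 988 of the 5449 rose. In the interaction, 15 were called below 0, beside 21.3% of all genes, and 1 above, beside 241 of the 5449. With SMER3, 6 rose and 1 fell, beside 21.6% and 14.8% of all genes, with a median of 0.12, beside a median of 0.70 for the 8 arginine synthesis genes.

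The other list held genes under nitrogen catabolite repression, 16 of 17 measured. With rapamycin 16 rose, where 39.7% of all genes rose, with a median of 4.29, beside 1.29 for the 2 arginine breakdown genes. With SMER1, 11 of the 16 rose and none fell, where 36.5% of all genes rose and 25% fell. Their median was 0.69, beside 0.70 for the breakdown genes. With SMER1 with rapamycin against rapamycin alone, 1 rose and 9 fell, with a median of -0.54, beside -0.46 for the breakdown genes. In that comparison 28.2% of all genes fell and 988 of the 5449 rose. With SMER3, 5 rose and 1 fell, where 21.6% of all genes rose and 14.8% fell, with a median of 0.27, beside -0.34 for the breakdown genes. Nothing particular to a list is drawn from these counts, and the comparisons with DMSO share their DMSO arrays.

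**Figure D4:**
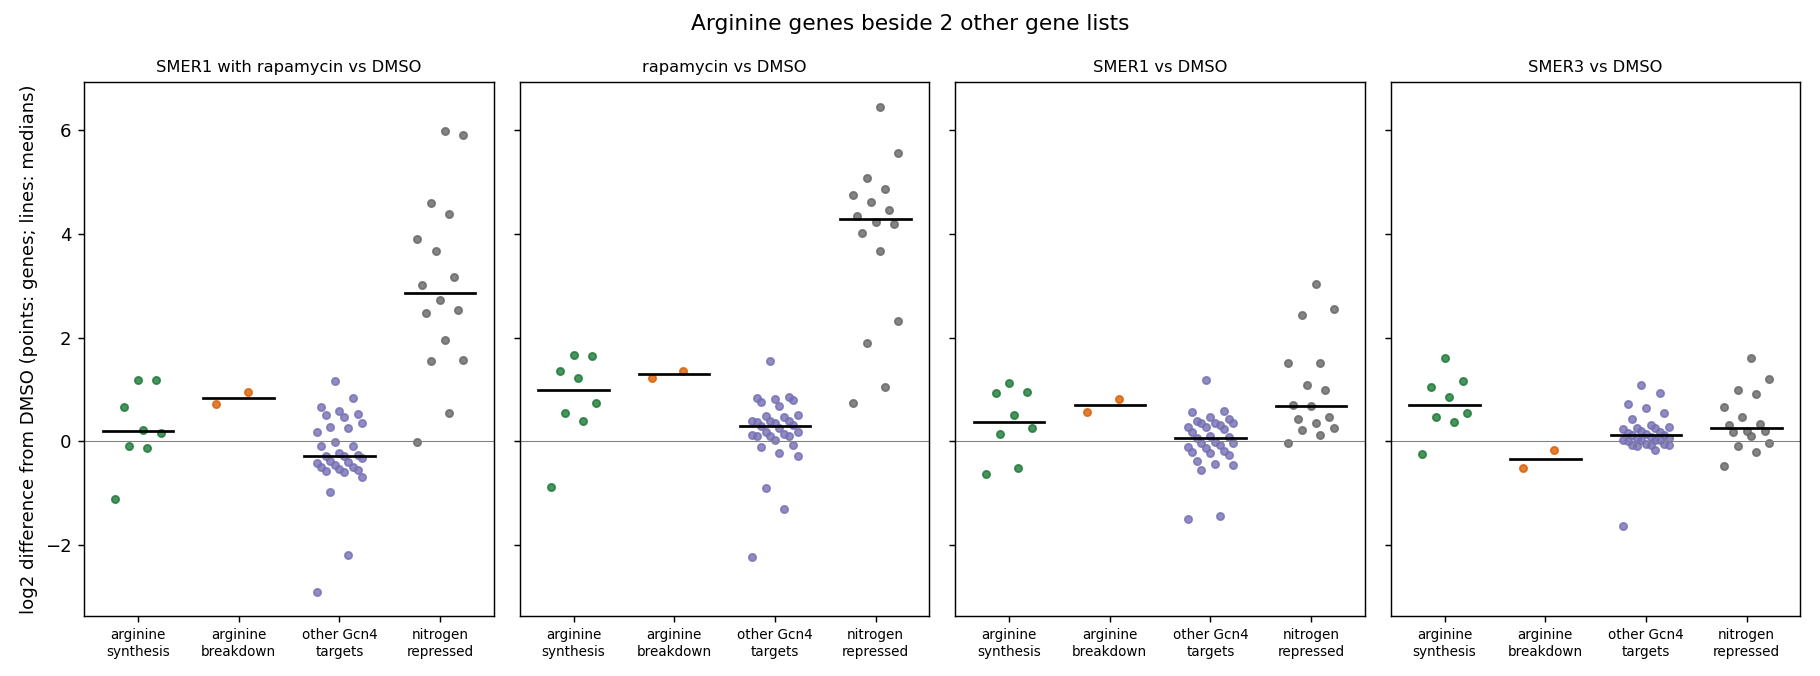
Log2 differences of single genes from DMSO (points, y axis) and list medians (lines) for arginine synthesis, arginine breakdown, other Gcn4 targets and nitrogen catabolite repressed genes, with 1 panel each for SMER1 with rapamycin, rapamycin, SMER1 and SMER3. With rapamycin the nitrogen catabolite repressed genes have a median of 4.29 and the arginine breakdown genes one of 1.29.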

How the data were processed

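The authors deposited signal intensities of 5716 probe sets, taken as log2, for 13 one-colour Affymetrix arrays, the log base being judged from their range, 0 to 14.67. Per the labels' protocols, total RNA was labelled with biotin as cRNA. How probes were summarised, background corrected and normalised is not given in the sources used here. Sorted columns were not identical. Of the probe sets, 5498 had 1 gene name, 218 had none and none was named from several genes; 12 symbols were updated from the R64 gene table. For 47 genes with several probe sets the one with the highest mean was kept, which left 5449 genes.

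A model with 1 mean per group was fitted with limma 3.58.1 (lmFit and eBayes) in R 4.3.3, and p-values were adjusted by Benjamini-Hochberg over all 5449 genes. Residual degrees of freedom were 5, the prior degrees of freedom 2.36 and the prior SD 0.102. A call is an adjusted p under 0.05, two-sided, in this fit, which has no term for replicate number. Groups of 1 array borrow the spread of the replicated groups. Intervals are at 95% and unadjusted. The fit was checked on simulated data. The genes, lists and comparisons were chosen with earlier results of these data known. Named genes are the 10 members, called neighbours, each list's extremes, and the 2 genes nearest in pattern to each member. ARG80 and ARG81 were not called between replicated groups and were named as subunits of the ArgR-Mcm1 complex. Alternatives were quantile normalisation, median centring, a filter on the 25% of genes with the lowest mean, an intensity trend, the replicate block, only the groups compared, and leaving out each replicate. No sequences or coordinates were used here, so the planned search of promoters for motifs was not run.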

Additional observations from a re-analysis of the deposited data

Results flagged for a closer look

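The difference between the effect of SMER1 in rapamycin and its effect in DMSO passed the limma interaction test for 9 of the 10 arginine genes, all below 0, where 21.3% of all genes passed below 0 and the median of all genes was -0.18. The values, as log2 differences with their SE, were -1.61 ± 0.12 for ARG4, -1.5 ± 0.20 for ARG7, -1.44 ± 0.12 for ORT1, -1.32 ± 0.10 for CAR2, -1.0 ± 0.15 for CPA1, -0.99 ± 0.13 for CAR1, -0.93 ± 0.17 for ARG1, -0.72 ± 0.11 for ARG2 and -0.57 ± 0.15 for ARG3. Adjusted p-values ran from 0.000242 for ARG4 to 0.031 for ARG3. The ARG3 call was lost without DMSO replicate 2 or 3, without either SMER1 array, without either array of SMER1 with rapamycin, and without either rapamycin array, with adjusted p between 0.0549 and 0.105, and after quantile normalisation (-0.17, adjusted p = 0.402). The other 8 were called below 0 in every alternative run. In the reported fit, all 16 measured genes under nitrogen catabolite repression were also called below 0, with a median of -1.86, beside -0.99 for the 10 arginine genes. Of the 33 other Gcn4 targets, 15 were called below 0. The direction was therefore not particular to the arginine genes.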

How the results depend on the processing

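Of 1738 values of single arginine genes under alternatives, 1624 kept their direction and their side of the threshold, 38 gained a call, 41 lost one and 35 changed sign. Of the 63 called results, 54 kept call and direction in every alternative. Those that changed sign were not called before or after. After quantile normalisation they were CPA1 in SMER1 against DMSO (-0.057), ARG3 in SMER1 with rapamycin against SMER1 (0.19), CPA1 in SMER2 (0.035), and ARG2 (-0.014) and ORT1 (-0.012) in SMER5. After median centring they were ARG3 in SMER1 with rapamycin against SMER1 (0.004), CPA1 in SMER2 (0.008) and ORT1 in SMER5 (-0.00067). With the replicate block they were CPA1 (0.071), ARG1 (-0.013) and CAR1 (-0.032) in SMER2, ARG2 (0.023), ARG3 (-0.0084), ARG1 (-0.0061) and CAR1 (-0.049) in SMER4, and ARG1 (-0.092) and ORT1 (-0.080) in SMER5. When arrays were left out in turn, the differences from DMSO ran from -0.26 to 0.003 for CPA1 and from -0.18 to 0.0027 for ARG1 in SMER1 with rapamycin, from -0.015 to 0.0035 for CPA1 in SMER2, from -0.021 to 0.011 for ARG2, from -0.071 to 0.029 for ORT1 and from -0.016 to 0.11 for CAR1 in SMER4, and from -0.0055 to 0.17 for ARG7, from -0.081 to 0.07 for ARG3, from -0.092 to 0.031 for CAR1, from -0.006 to 0.026 for ARG2, from -0.032 to 0.11 for ARG1 and from -0.052 to 0.048 for ORT1 in SMER5. Against SMER1, SMER1 with rapamycin ran from -0.039 to 0.13 for ARG4 and from -0.08 to 0.017 for ARG3.

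Arrays of equal replicate number in different groups had deviations correlated above 0.1 in 10 of 12 pairs. The pairs among SMER1, rapamycin and their combination lay at 0.436 to 0.598, and those of DMSO replicate 2 at 0.07 to 0.131. In a group of 2 arrays the deviations mirror each other. The pairs among SMER1, rapamycin and their combination therefore have equal values for both replicate numbers and are counted for each. Deviations thus went together between arrays of equal number, which the reported p-values do not take into account. What these arrays share was not tested. The single arrays of SMER2 to SMER5 all carry replicate number 1, while the DMSO mean covers replicates 1 to 3. In the reported fit, an effect of that number cannot be told apart from these compounds. The labels name nothing that the numbers share, and 2 pairs of DMSO replicate 2 did not reach 0.1. The fit without the block was kept. The replicate block raised the count of arginine genes called to 6 in SMER1 with rapamycin against SMER1 (3 as reported), to 2 in SMER2 against DMSO (0 as reported, ARG7 at 0.63 and ARG4 at 0.51) and to 8 in SMER3 against SMER1 (5 as reported). With the block, the count over all genes was 1804 in SMER1 with rapamycin against SMER1 (906), 3057 in SMER1 against rapamycin (2006), 2377 in the interaction (1401), 513 in SMER2 (17) and 82 in SMER5 (0). With only the groups compared, 1 arginine gene was called in SMER1 with rapamycin against SMER1. All genes called in SMER2 numbered 11 after quantile normalisation, and those in SMER5 numbered 1 with the filter on low means and 1 with the trend. With arrays left out in turn, all genes called ran from 1643 to 2606 in SMER1 with rapamycin against rapamycin, lowest without SMER1 with rapamycin replicate 2, from 445 to 929 in SMER1 with rapamycin against SMER1 (arginine genes 0 to 4), from 1244 to 2065 in SMER1 against rapamycin, lowest without SMER1 replicate 2, from 816 to 1426 in the interaction, from 2 to 7 in SMER2, from 0 to 1 in SMER4 and from 0 to 1 in SMER5. The cause was not tested. After quantile normalisation the median of all genes moved by -0.14 with rapamycin and by -0.13 with SMER1, and the calls over all genes became 1730 higher and 1489 lower with rapamycin (2165 and 1111 as deposited), 1706 and 1840 with SMER1 (1990 and 1362), 475 and 637 in SMER1 with rapamycin against SMER1 (270 and 636) and 5 and 6 with SMER2 (5 and 12). The alternative of another probe set could not be run, since each of the 10 genes had 1. ARG3 lay in the lowest 25% of genes by mean and was not in the filtered fit. Signal over background was not used here.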

Other observations

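The arginine permeases did not follow one pattern. CAN1, the main arginine permease of the plasma membrane, rose by 1.92 ± 0.12 (log2 difference from DMSO and SE) with rapamycin, and by 0.44 ± 0.12 with SMER1 (limma, adjusted p = 0.0135 for SMER1). ALP1, a related basic amino acid permease, rose by 2.07 ± 0.09 with SMER1 and by 0.83 ± 0.09 with rapamycin. Set directly against rapamycin, SMER1 gave CAN1 a difference of -1.48 ± 0.13 and ALP1 one of 1.24 ± 0.10. With both compounds against rapamycin alone, ALP1 was higher by 1.03 ± 0.10 while CAN1 had a difference of -0.21 ± 0.13 that did not pass. GAP1, the general amino acid permease, rose against DMSO by 2.44 ± 0.09 with SMER1, by 4.01 ± 0.09 with rapamycin and by 3.91 ± 0.09 with both. It rose less with SMER1 than with rapamycin, by a difference of -1.58 ± 0.10.

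ARG82 was the regulator of the list with the highest difference in the single SMER3 array, 1.5 ± 0.12 against DMSO and 1.38 ± 0.12 against SMER1. With both compounds it was higher than with rapamycin alone by 0.75 ± 0.10.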
